A study of Mus musculus with 6 samples.

Results

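The 78 protein-coding genes for mitochondrial ribosomal proteins were taken from the data by symbol: every mouse gene named Mrpl or Mrps, then a number and at most 1 letter. They were 78 of the 54115 genes with a transcript in the files, and all 78 were among the 17152 genes with enough reads to be tested. The name puts 49 of them in the large subunit of the mitochondrial ribosome (Mrpl) and 29 in the small subunit (Mrps). The symbol rule uses no measured value, but it was set with earlier results of these data known.

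RNA-sequencing was run on satellite cells, the cells that rebuild muscle after injury, from 3 Pax7WT and 3 Pax7KR samples of mice on the C57BL/6J background. Pax7KR animals were homozygous for a lysine to arginine change in the transcription factor PAX7, introduced by CRISPR at a lysine that is acetylated, and Pax7WT animals were their littermates. Mice were 6 to 8 weeks old, and their hindlimb muscles were uninjured. Cells were sorted as positive for α7-INTEGRIN and CD34 and negative for CD31, CD11b, SCA-1 and CD45, and each library was made from 15 ng of RNA. The change is present in every cell of the mutant mice, so nothing in the design limits it to satellite cells. The question asked of these genes was whether their RNA levels differed between the genotypes.

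Mitochondria carry their own ribosome, which translates the few proteins encoded by mitochondrial DNA, all of them subunits of the respiratory chain and ATP synthase. Its ribosomal RNAs are transcribed inside the organelle, whereas each of its proteins is encoded in the nucleus, made in the cytoplasm and imported, so the genes below must be expressed together with the products of a second genome. Some of the proteins descend from bacterial ribosomal proteins and others were added in the mitochondrial lineage. Quiescent satellite cells are known for few mitochondria and low respiration, and mitochondrial mass grows as they activate.

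Libraries held 17822367 to 27908054 estimated reads, and a member had 83 to 1944 reads in a library. Each of the 9 satellite cell markers was detected, at a summed 5179 to 5431 CPM (reads of a gene per 1000000 reads) in Pax7WT and 5256 to 5396 in Pax7KR. Cd3e, 1 of 8 immune markers, was at 0 in every library, and the immune list summed to 14.8 to 16.5 CPM in Pax7WT and 12.5 to 16.9 in Pax7KR. Erythroid markers, 5 of 5 detected, summed to 187 to 371 CPM in Pax7WT and 332 to 556 in Pax7KR, and endothelial markers, 8 of 8 detected, to 271 to 343 and 304 to 390. Tek held 184 to 227 CPM of the endothelial sum. Fibro-adipogenic markers summed to 1903 to 2037 CPM in Pax7WT and 1954 to 2093 in Pax7KR, mostly from Col3a1 and Dpt. Smooth muscle and pericyte markers summed to 2353 to 2728 and 2238 to 2503 CPM, mostly from Notch3. These lists and those of myofibre and of Schwann and glial cells overlapped between genotypes as well. Marker sums are on library totals, and every other CPM value here is on library sizes scaled by the TMM method. The RNA came from sorted populations, so fewer cells of a type and less RNA per cell cannot be told apart. Pax7 itself, whose product is altered and not removed in the mutant, had 1666, 1506 and 1480 CPM in Pax7WT and 1410, 1460 and 1637 in Pax7KR. Its groups overlapped, and its level does not check the labels.

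Mitochondrial ribosomal protein genes were expressed at moderate and rather even levels. Compared per length, in TPM (transcripts of a gene per 1000000 transcripts), their means over the 6 libraries ran from 7.69 to 144, an 18.7-fold range, and 67 of 78 lay above the median of 17.5 TPM of the 13971 protein-coding genes tested. The upper quartile was 2.04 times the lower quartile among the members and 11.4 times among all tested protein-coding genes. The median was 30.9 TPM for the large subunit and 36.8 TPM for the small subunit. All members together held 0.159% to 0.168% of all reads in each library.

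**Figure D1:**
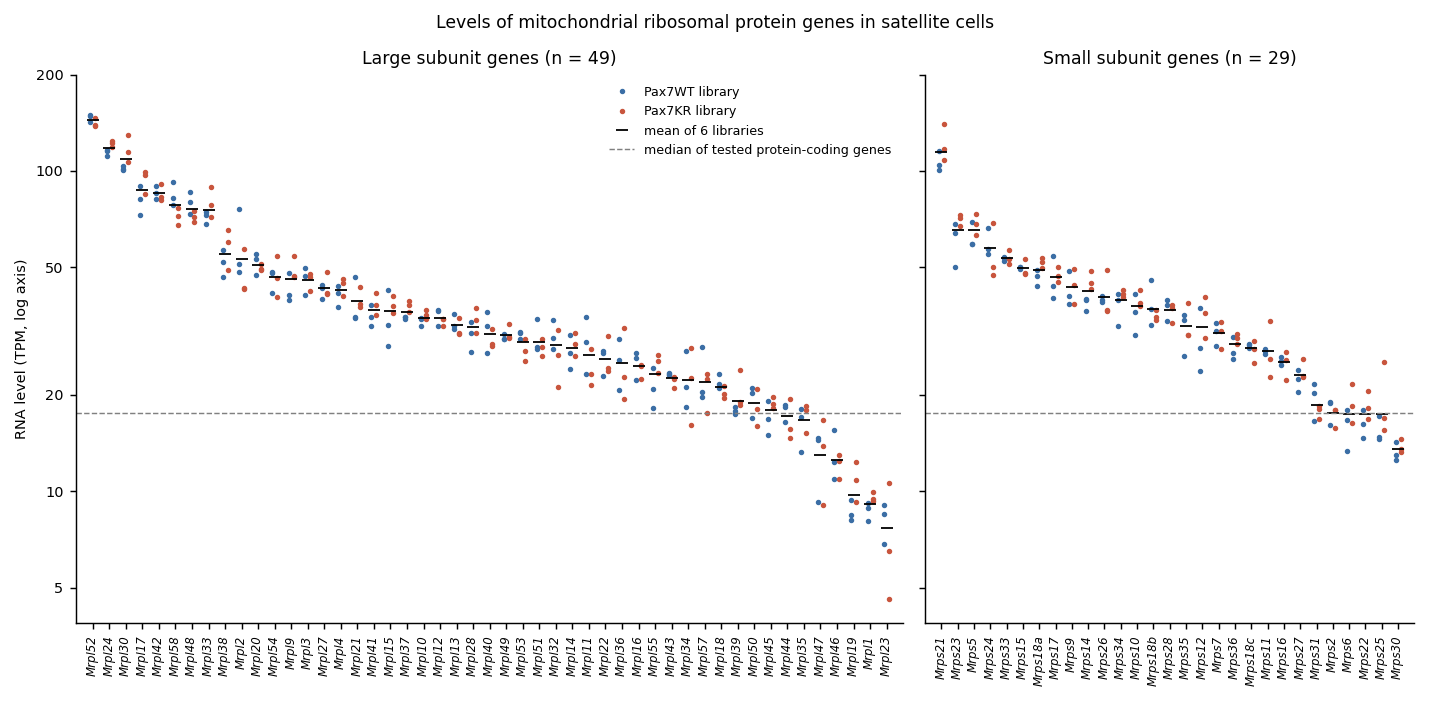
RNA level in TPM on a log axis for the 49 large subunit and 29 small subunit genes, ordered by their mean over 6 libraries; blue points are the 3 Pax7WT libraries, red points the 3 Pax7KR libraries, short black bars the means, and the dashed line the median of tested protein-coding genes, 17.5 TPM. Most members sit above the line, and Mrpl52 at 144 TPM and Mrpl23 at 7.69 TPM mark the ends.

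Among large subunit genes, Mrpl52, a subunit that bacteria lack, had the highest mean level, 144 ± 4.82 TPM (SD, n = 6). It was followed by Mrpl24 at 118 ± 4.59 and Mrpl30 at 109 ± 11.01 TPM, both descended from bacterial proteins. Mrpl17, also of bacterial descent, had 87.5 ± 9.98 TPM and Mrpl42, a mitochondrial addition, 85.3 ± 4.23 TPM. The libraries of these last 2 overlap, as do those of Mrpl24 and Mrpl30, whereas the 6 libraries of Mrpl52 (138 to 149 TPM) did not reach down to those of Mrpl24 (111 to 124 TPM). At the other end, Mrpl19 had 9.74 ± 1.596 TPM and Mrpl1, whose bacterial counterpart forms a mobile stalk at the site where tRNA leaves, had 9.15 ± 0.62 TPM. Mrpl23, whose bacterial counterpart lies at the exit of the peptide tunnel, had 7.69 ± 2.13 TPM and had the largest SD relative to its mean among the members (27.7%), with 4.62 TPM in its lowest library and 10.6 TPM in its highest. The spreads of these 3 lowest genes overlapped.

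Among small subunit genes, Mrps21 stood highest with 114 ± 14.1 TPM, and its 6 libraries, from 101 to 140 TPM, did not overlap those of any other small subunit gene. Mrps23, a mitochondrial addition, had 65.6 ± 8.23 TPM, Mrps5 had 65.4 ± 5.89 TPM, and Mrps24, the counterpart of bacterial S3, had 57.5 ± 8.61 TPM. Mrps33 had 53.4 ± 1.88 TPM. The lowest library of Mrps5 (59.0 TPM) lay above the highest of Mrps33 (56.7 TPM), and the ranges of the other pairs among these 4 genes overlapped. The lowest were Mrps22 at 17.4 ± 2.03, Mrps25 at 17.4 ± 4.07 and Mrps30 at 13.5 ± 0.78 TPM.

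The RNA summed here is not all mRNA that codes for the subunits, because salmon assigns reads to each annotated transcript of a gene. In the median member 90.03% of reads were assigned to transcripts annotated as protein coding, but in 13 of 78 members the share was below 50%. In Mrpl32, 34.2% of reads fell on its protein-coding transcript, 52.3% on transcripts annotated for nonsense-mediated decay and 13.4% on a retained intron. In Mrps14 the decay class held 68.6% of reads and in Mrps26 a retained-intron transcript held 72.6%. Mrpl23 was the extreme case, with 5.94% on protein-coding transcripts and 72.7% on a single-exon transcript of 3715 bases annotated as a retained intron. The gene also has a processed pseudogene, Mrpl23-ps1, that shares 53.0% of the 31-base words of its coding transcripts and had 4076 reads over the 6 libraries, so the split of reads between gene and copy is uncertain.

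**Figure D2:**
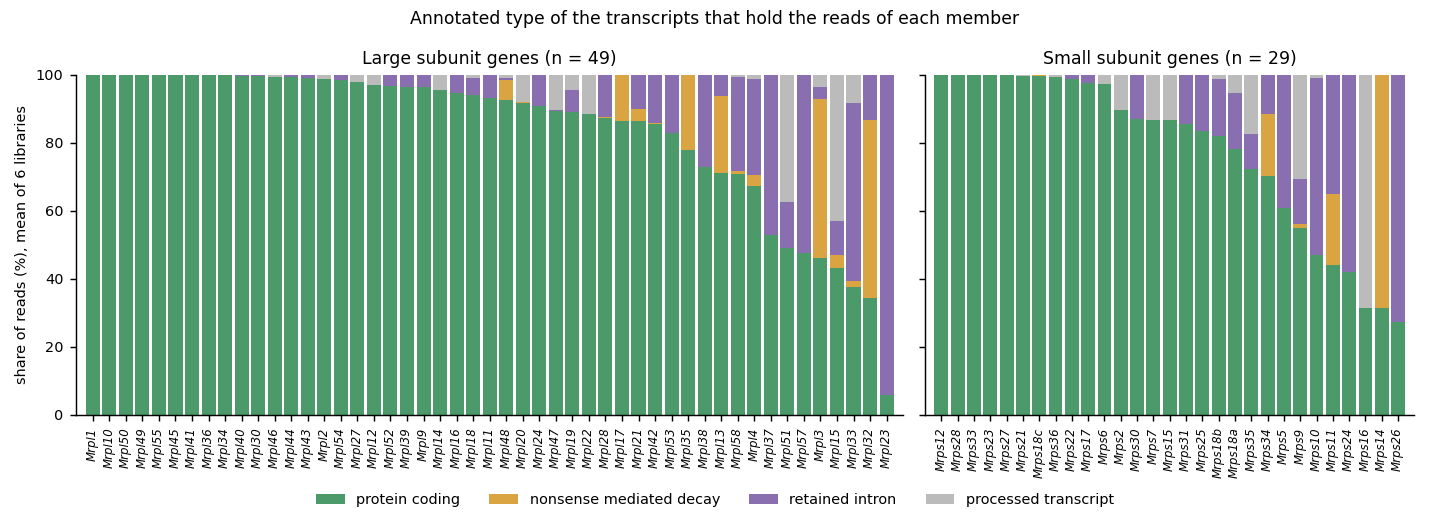
Share of each member's reads, in percent of the mean of 6 libraries, by the annotated type of the transcript they were assigned to. Genes are ordered by their protein-coding share within each subunit; 13 of the 78 bars have less than 50% green, and Mrpl23 has 5.94%.

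These shares lay close together across libraries. Protein-coding transcripts held 82.8% to 84.2% of large subunit reads and 74.7% to 77.0% of small subunit reads, with the genotypes overlapping in both. In the small subunit, the share on transcripts annotated for nonsense-mediated decay did not overlap between genotypes. It was 2.96%, 2.84% and 2.49% of reads in Pax7WT and 3.26%, 3.40% and 3.04% in Pax7KR. The other classes of the small subunit and all those of the large subunit overlapped. Among single genes tested, 10.3% did not overlap between genotypes in CPM. A matching share for transcript classes over all genes was not computed, and the decay class was not tested. Sequence shared with other genes was another limit on single members: 24 shared none of their 31-base words with another gene, and 7 shared more than 20%. The largest share was that of Mrpl53, at 84.4% over its transcripts and complete over its coding transcripts, with the overlapping gene model Gm42688, and its counts are uncertain for that reason. Gm42688 itself had 13.2, 15.2 and 9.06 CPM in Pax7WT and 15.5, 15.0 and 13.9 CPM in Pax7KR.

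No mitochondrial ribosomal protein gene differed between Pax7KR and Pax7WT satellite cells at an adjusted p under 0.1. In edgeR's quasi-likelihood test with Benjamini-Hochberg adjustment over all genes, 0 of 49 large subunit and 0 of 29 small subunit genes were called, with a lowest adjusted p of 0.992. The background is the same, since 0.0% of all 17152 genes were called. At an unadjusted p under 0.05 there were 2 of 78 members, both lower in Pax7KR, where 4.68% of all genes passed that limit, 2.43% of all genes being lower and 2.26% higher. DESeq2 called 0 of 78 members, against 0.175% of all genes, or 0.262% with average transcript length as an offset, where it also called 0 members, and limma-voom called 0.

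The fold changes were small as well as uncalled. The log2 fold change of Pax7KR over Pax7WT ran from -0.39 to 0.17 over the large subunit, with a median of -0.03, and 31 of 49 genes lay below 0. Over the small subunit it ran from -0.18 to 0.20, with a median of -0.01 and 16 of 29 genes below 0. Among all genes the median was -0.004 and 51.0% lay below 0. The count of large subunit genes below 0 rested in part on 1 library: without Pax7WT replicate 2 it was 24 of 49, and without Pax7KR replicate 2 it was 26 of 49.

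In the edgeR fit above, the intervals bounded most of these genes. They hold for the summed reads of a gene and leave out the uncertainty of assigning reads to transcripts. With average transcript length as an offset, Mrps23 moved from -0.15 to 0.15. The 95% interval of the log2 fold change excluded a 1.5-fold change in either direction for 76 of 78 members (97.4%), compared with 88.5% of the 7441 other genes in the same range of levels. The median half-width of the interval was 0.25, from 0.14 to 0.52. The 2 genes whose intervals reached a 1.5-fold change were Mrpl32, at -0.67 to -0.12, and Mrps12, at -0.18 to 0.59. The median coefficient of biological variation was 10.9% for members and 10.4% for other genes at their level, and the median absolute log2 fold change was 0.08 in both.

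**Figure D3:**
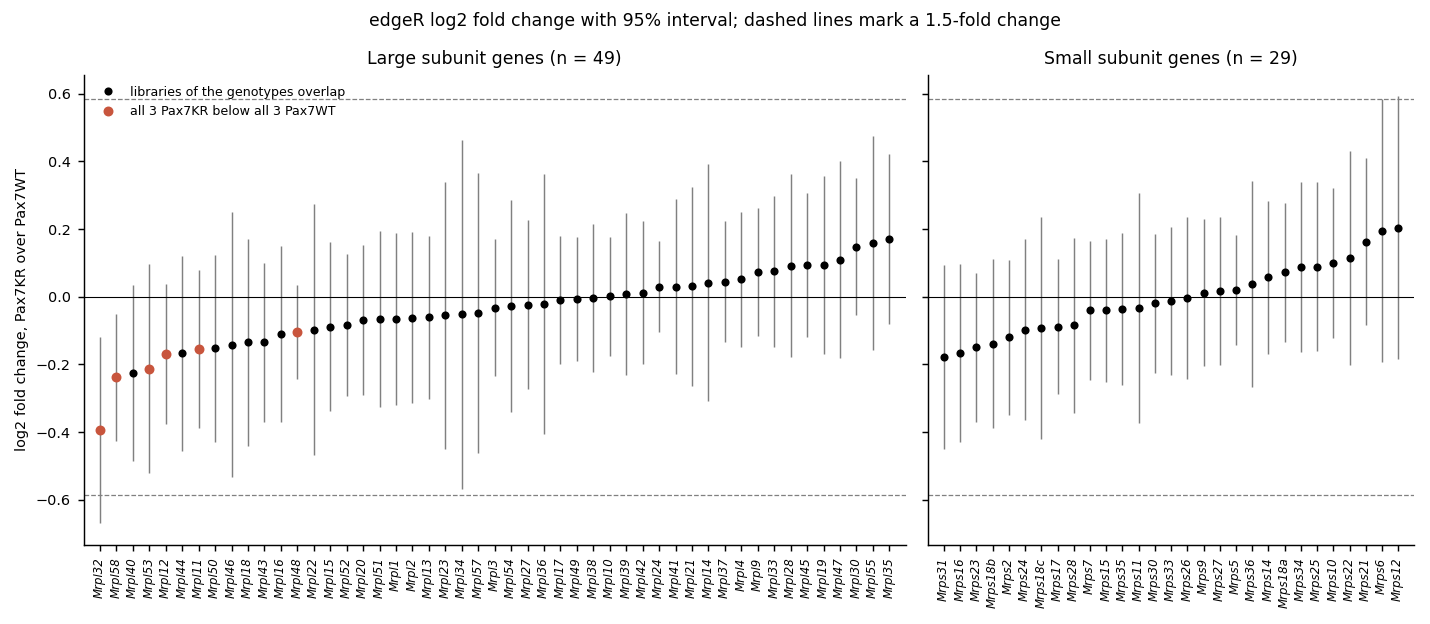
Log2 fold change of Pax7KR over Pax7WT with its 95% interval for each large subunit and small subunit gene, in rising order; dashed lines mark a 1.5-fold change. Red points are the 6 large subunit genes with all 3 Pax7KR libraries below all 3 Pax7WT libraries, and 76 of 78 intervals include 0.

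In 6 of 49 large subunit genes, 12.2%, all 3 Pax7KR libraries lay below all 3 Pax7WT libraries on the CPM scale, and in 0 of 49 they lay above. Groups that do not overlap in this way are called apart. Over all genes tested these shares were 5.19% and 5.14%, or 10.3% in either direction. No small subunit gene was apart in either direction. Over all 78 members 6 were apart, all of them lower (7.69%), which is below the 10.3% of all genes. An exact permutation test on 3 against 3 samples cannot give a two-sided p below 0.1, and none of the 6 passed the edgeR test after adjustment.

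Promoter sequences of 4 of these 6 genes are shown, chosen because they hold matches to motifs of factors known for nuclear genes of mitochondria. Each is the 150 bases before a RefSeq start in GRCm38.p6, read 5′ to 3′ on the gene's strand, with motif matches in capitals.
Mrpl32, chr13:14613038-14613187, minus strand: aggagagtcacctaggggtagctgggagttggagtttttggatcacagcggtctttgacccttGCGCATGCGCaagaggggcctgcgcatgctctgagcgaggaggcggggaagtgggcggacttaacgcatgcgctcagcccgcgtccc
Mrpl12, chr11:120484487-120484636, plus strand: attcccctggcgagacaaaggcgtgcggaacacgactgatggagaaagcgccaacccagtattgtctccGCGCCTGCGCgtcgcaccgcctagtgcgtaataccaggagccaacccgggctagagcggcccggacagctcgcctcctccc
Mrpl58, chr11:115403602-115403751, plus strand: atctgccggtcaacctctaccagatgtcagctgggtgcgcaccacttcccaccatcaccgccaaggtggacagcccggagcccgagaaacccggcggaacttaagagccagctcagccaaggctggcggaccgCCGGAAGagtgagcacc
Mrpl53, chr6:83108958-83109107, plus strand: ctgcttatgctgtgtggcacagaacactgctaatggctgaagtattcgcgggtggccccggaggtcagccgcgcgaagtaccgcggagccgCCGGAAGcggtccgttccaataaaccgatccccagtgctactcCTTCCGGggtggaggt

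The motif of NRF1, a regulator of nuclear genes for respiration, was searched on both strands as GCGCA, then any base N, then GCGC. It began at position -87 from the RefSeq start in Mrpl32 and at -81 in Mrpl12, where the match lies on the other strand. The core of the ETS family, to which the mitochondrial gene regulator GABPA belongs, was searched as CCGGAAG on both strands and began at -17 in Mrpl58 and at -59 and -16 in Mrpl53. The RefSeq start and the GENCODE gene start lay 128 bases apart in Mrpl32, 68 in Mrpl53, 24 in Mrpl12 and 0 in Mrpl58. In Mrpl32 the GENCODE start is the one upstream, so the match at -87 lies inside the gene as GENCODE annotates it. In Mrpl12 the GENCODE start is also upstream, but the match at -81 lies before it. The stretches of Mrpl48 and Mrpl11 held neither motif nor that of YY1. In Mrpl11 the RefSeq and GENCODE starts lay 159 bases apart, more than the length of the stretch. Mrpl48 has 4 RefSeq starts, and its stretch lies before the start that matches GENCODE. In the longer promoters described below, 57.3% of those of members held any of the 3 motifs. The genes shown here were not tested against that share. A match is a string of letters in the searched sequence and does not show that a factor binds.

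Mrpl32 (ENSMUSG00000015672, chromosome 13, 14608184 to 14613165, minus strand of GRCm38) encodes a large subunit protein of bacterial descent that must be cut by the m-AAA protease after import before it can be assembled. It had 18.4, 19.0 and 16.3 CPM in the Pax7WT libraries and 14.6, 11.5 and 14.8 CPM in the Pax7KR libraries. All Pax7KR values lay below the Pax7WT values, and Pax7KR replicate 2 was the lowest. Its log2 fold change was -0.39 (SE 0.13), the largest among the members, with an unadjusted p of 0.0084 and an adjusted p of 0.992 in edgeR. Leaving out 1 library at a time gave -0.46 to -0.29. With only its protein-coding transcript summed, the log2 fold change was -0.56, and with average transcript length as an offset it was -0.27. On the TPM scale its genotypes overlapped.

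Mrpl58 (ENSMUSG00000018858, chromosome 11, 115403752 to 115412674, plus strand), also known as ICT1, is a peptidyl-tRNA hydrolase built into the large subunit that frees stalled peptides. It had 29.4, 28.8 and 29.1 CPM in Pax7WT and 24.6, 25.6 and 23.9 CPM in Pax7KR. The values within each genotype lay close together, with a clear gap between genotypes. The log2 fold change was -0.24 (SE 0.09), with an unadjusted p of 0.017 and an adjusted p of 0.992 in edgeR, and left-out libraries moved it between -0.26 and -0.21. It was the only 1 of the 6 genes also apart in TPM, at 92.55, 82.1 and 78.2 in Pax7WT and 72.1, 76.6 and 67.6 in Pax7KR. With protein-coding transcripts alone the log2 fold change of Mrpl58 was -0.16 and its genotypes overlapped. With average transcript length as an offset it was -0.29.

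Mrpl12 (ENSMUSG00000039640, chromosome 11, 120484613 to 120489065, plus strand) encodes the stalk protein that recruits translation factors, and its product has been described as a partner of the mitochondrial RNA polymerase. It had 22.8, 25.6 and 25.8 CPM in Pax7WT and 22.6, 21.9 and 21.5 CPM in Pax7KR. Pax7WT replicate 1 lay next to the Pax7KR libraries, so the gap between groups was narrow. The log2 fold change was -0.17 (SE 0.10). Mrpl11, at the base of the same stalk, had 17.6, 18.4 and 15.9 CPM in Pax7WT and 15.2, 15.5 and 15.9 CPM in Pax7KR, with a log2 fold change of -0.15 (SE 0.11). Its groups were apart by less than the last digit shown.

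Mrpl48, a mitochondrial addition, had 60.8, 62.8 and 59.5 CPM in Pax7WT and 56.0, 56.9 and 57.4 CPM in Pax7KR, a log2 fold change of -0.10 (SE 0.06). It was the best covered of the 6, with at least 1113 reads in a library. Mrpl53, which carries the uncertainty from Gm42688 given above, had 9.996, 9.48 and 9.89 CPM in Pax7WT and 9.10, 7.67 and 8.61 CPM in Pax7KR, a log2 fold change of -0.21 (SE 0.14). With protein-coding transcripts alone the value for Mrpl53 was -0.08, and with the length offset that for Mrpl48 was -0.21 and that for Mrpl11 -0.33. For these 4 genes the adjusted p in edgeR was 0.992. Erythroid markers had higher ranges in Pax7KR than in Pax7WT, as given above, and their part in these values was not tested.

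**Figure D4:**
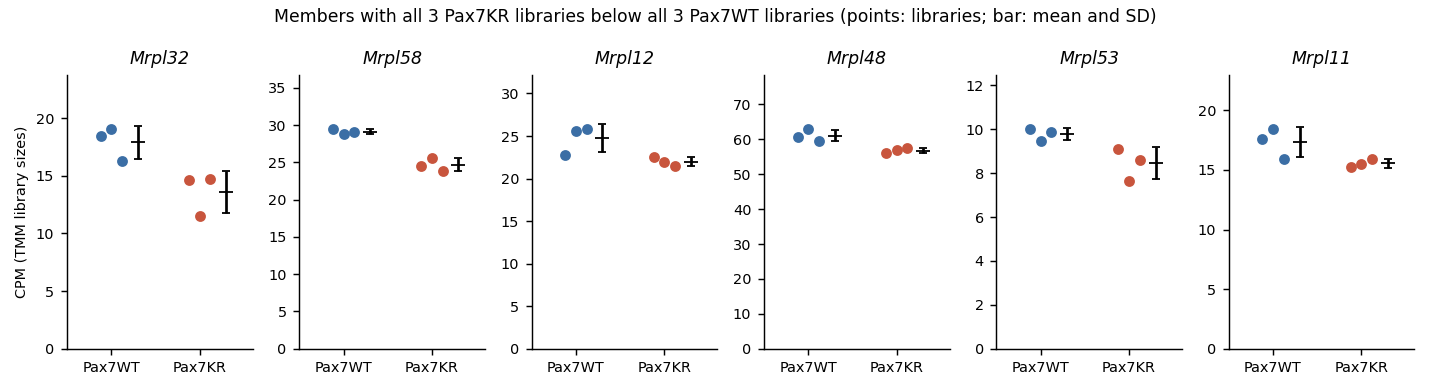
CPM in each library for the 6 large subunit genes with all 3 Pax7KR libraries (red) below all 3 Pax7WT libraries (blue); points are libraries and the bar beside them is the mean with its SD, with each axis starting at 0. The lowest Pax7WT and the highest Pax7KR library stand at 28.8 and 25.6 CPM for Mrpl58, at 59.5 and 57.4 for Mrpl48 and at 16.3 and 14.8 for Mrpl32, and nearly touch for Mrpl12 and Mrpl11.

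The 6 genes depended on the scale, which was examined after their values were seen. On the TPM scale, 2 of 49 large subunit genes, Mrpl43 and Mrpl58, had all Pax7KR libraries lower, and 5 of 49, Mrpl1, Mrpl24, Mrpl30, Mrpl37 and Mrpl39, had all of them higher. The shares over all genes on that scale were 2.78% lower and 9.69% higher, so TPM values were tilted towards Pax7KR throughout. In the small subunit 0 of 29 were lower and 2 of 29, Mrps14 and Mrps18a, were higher. In CPM over protein-coding transcripts alone, 1 large subunit gene, Mrpl32, was lower and 2, Mrpl30 and Mrpl35, were higher. In the small subunit Mrps16 was lower and 0 were higher, with 3.33% lower and 7.84% higher over all tested protein-coding genes.

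The other members with the smallest p were not apart. Mrpl40, a mitochondrial addition, had 19.2, 15.4 and 17.0 CPM in Pax7WT and 15.96, 13.9 and 14.3 CPM in Pax7KR, with a log2 fold change of -0.23 (SE 0.12). Mrpl30 had 33.4, 33.0 and 33.1 CPM in Pax7WT and 32.4, 36.7 and 41.2 CPM in Pax7KR, with a log2 fold change of 0.15 (SE 0.09). The Pax7WT libraries of Mrpl30 were nearly equal, and the Pax7KR libraries spread on both sides of them. The value for Mrpl30 was 0.06 without Pax7KR replicate 3 and 0.23 without Pax7KR replicate 1, and that for Mrpl40 was -0.14 without Pax7WT replicate 1. Mrpl35 had 14.9, 16.9 and 15.0 CPM against 19.5, 16.9 and 16.2 CPM, a log2 fold change of 0.17 (SE 0.12), which was 0.03 with the length offset and 0.09 without Pax7KR replicate 1. Mrps23 had 33.4, 26.4 and 28.2 CPM against 25.8, 27.2 and 26.5 CPM, where Pax7WT replicate 1 stood above the other libraries. Its log2 fold change of -0.15 (SE 0.10) turned to 0.15 when average transcript length was an offset, and was -0.04 without Pax7WT replicate 1. Each of these 4 had an adjusted p of 0.992 in edgeR.

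Several members have a role apart from their name. Mrps18a, Mrps18b and Mrps18c are paralogs of bacterial S18 that occupy different places, and Mrps18a and Mrps30 sit in the large subunit in structures of the mammalian ribosome. Their log2 fold changes were 0.07 (SE 0.09) for Mrps18a, -0.14 (SE 0.12) for Mrps18b and -0.09 (SE 0.15) for Mrps18c, and that of Mrps30 was -0.02 (SE 0.09). Mrps36, now known as a component of the 2-oxoglutarate dehydrogenase complex and not of the ribosome, had 0.04 (SE 0.14). None was apart by genotype in CPM. With genes placed by structure, 32 of 51 large subunit and 15 of 26 small subunit genes lay below 0, with medians of -0.03 and -0.02.

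The counts were also taken by descent. Of 46 members with a bacterial counterpart, 26 lay below 0 with a median of -0.03, and of 31 mitochondrial additions 21 lay below 0 with a median of -0.03. The mitochondrial additions in the large subunit had the lowest median, -0.07, with 14 of 19 below 0. These classes came from background knowledge of the ribosome and were not tested against each other.

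Summed over a subunit, the levels of the genotypes overlapped in CPM. Large subunit genes summed to 1038, 1062 and 1020 CPM in Pax7WT and 1030, 999 and 1029 CPM in Pax7KR. Small subunit genes summed to 584, 615 and 600 CPM in Pax7WT and 597, 600 and 589 CPM in Pax7KR. Pax7WT replicate 2 held the highest value of 14 of 49 large and 12 of 29 small subunit genes, and Pax7KR replicate 2 the lowest value of 15 of 49 large subunit genes. In TPM the small subunit summed to 1054, 1098 and 1084 in Pax7WT and 1162, 1131 and 1129 in Pax7KR, with the genotypes apart. The large subunit (1991, 2001 and 1889 against 2035, 1933 and 1983) overlapped. Of all single genes, 9.69% were apart and higher in TPM and 2.78% apart and lower. The 26 genes for ribosome assembly and rRNA modification, described below, were also apart and higher in summed TPM (481, 477 and 485 against 515, 507 and 511). The 13 mRNAs of mitochondrial DNA were apart the other way. The TPM of the large subunit was 1.74 to 1.89 times that of the small subunit in Pax7WT and 1.71 to 1.76 times in Pax7KR.

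Genes that work beside these proteins were counted in the same fit, and edgeR called none of the lists' genes at an adjusted p under 0.1. Of the 5 ribosome proteins whose symbols do not follow the rule, Dap3, a GTP-binding small subunit protein, had a log2 fold change of 0.01 (SE 0.08), Ptcd3 0.04 (SE 0.07), Aurkaip1 0.02 (SE 0.10), Gadd45gip1 0.07 (SE 0.09) and Chchd1 -0.12 (SE 0.12). None of the 5 was apart by genotype. Of 26 genes for ribosome assembly and rRNA modification 13 lay above 0 and 13 below. Trub2, a pseudouridine synthase, had 19.4, 21.3 and 21.8 CPM in Pax7WT and 22.0, 24.96 and 22.4 CPM in Pax7KR, a log2 fold change of 0.15 (SE 0.10) with an adjusted p of 0.992 in edgeR. Mterf3 had -0.22 (SE 0.12) and Mterf4, which guides an rRNA methyltransferase to the ribosome, had 0.24 (SE 0.16).

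Of 13 translation factors 8 lay above 0 and 5 below. Mrrf, the factor that recycles the mitochondrial ribosome after termination, had 17.9, 18.4 and 22.1 CPM in Pax7WT and 19.0, 17.7 and 18.7 CPM in Pax7KR, a log2 fold change of -0.07 (SE 0.11). Taco1, an activator of the translation of COX1, had 6.98, 7.23 and 7.21 CPM against 6.25, 6.07 and 5.72 CPM and a log2 fold change of -0.25 (SE 0.17). Taco1 was apart by genotype and Mrrf was not. In this list 1 of 13 was apart and lower (7.69%), against 5.19% of all genes. When average transcript length was an offset in DESeq2, Mrrf at -0.58 and Trub2 at 0.63 were called, with adjusted p of 0.071 and 0.060.

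Of 22 tRNA synthetase and amidotransferase genes 13 lay above 0. Wars2, which charges tryptophan tRNA, had a log2 fold change of 0.29 (SE 0.13, unadjusted p 0.039 in edgeR), and Iars2, which charges isoleucine tRNA, had -0.13 (SE 0.06, unadjusted p 0.045 in edgeR). Both were apart by genotype, in opposite directions. That was 1 of 22 higher (4.55%) and 1 of 22 lower (4.55%), against 5.14% and 5.19% of all genes. At an unadjusted p under 0.05 in edgeR, 1 of 22 was higher and 1 lower, against 2.26% and 2.43% of all genes. Genes of these lists were named for their small p. Of 11 tested genes for mitochondrial transcription and RNA processing, 7 lay below 0. Polrmt, the mitochondrial RNA polymerase, had 29.4, 32.9 and 29.8 CPM in Pax7WT and 36.3, 37.0 and 32.3 CPM in Pax7KR, a log2 fold change of 0.20 (SE 0.09). Tfam, which packages mitochondrial DNA and activates its transcription, had 36.2, 35.7 and 37.0 CPM against 33.0, 29.9 and 34.2 CPM, a log2 fold change of -0.17 (SE 0.08). Tfam was apart by genotype and Polrmt overlapped. In this list 1 of 11 was apart and lower (9.09%), against 5.19% of all genes. Neither Tfam nor Polrmt passed adjustment in edgeR, with an adjusted p of 0.992 for both.

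Regulators of nuclear genes for mitochondria were mixed, with 7 of 10 below 0. Myc had a log2 fold change of -0.20 (SE 0.07, unadjusted p 0.015 in edgeR), Gabpb2 of 0.12 (SE 0.06) and Nrf1 of 0.08 (SE 0.08). None of the 10 was called. An unadjusted p under 0.05 in edgeR was reached by 1 of 10, lower in Pax7KR, against 2.43% of all genes.

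The RNAs made inside the organelle, which the ribosome is built on and translates, showed lower values in Pax7KR. mt-Rnr2, the large subunit rRNA, had 1181, 1411 and 1332 CPM in Pax7WT and 972, 1009 and 1070 CPM in Pax7KR, a log2 fold change of -0.36 (SE 0.08). Its groups were apart, with an unadjusted p of 0.00048 and an adjusted p of 0.511 in edgeR. mt-Rnr1, the small subunit rRNA, had 318, 447 and 388 CPM against 261, 330 and 355 CPM, a log2 fold change of -0.29 (SE 0.16), and its groups overlapped. The 13 mRNAs of mitochondrial DNA together summed to 40645 to 56789 CPM in a library. That is a sum over genes and cannot be set against a single rRNA. The authors' methods name a library kit but no step that removes rRNA or selects mRNA. How much of the cells' rRNA these reads stand for is therefore not known. All 13 mRNAs of mitochondrial DNA lay below 0, with a median log2 fold change of -0.35. In 6 of 13 the groups were apart, against 5.19% of all genes lower, and 8 of 13 had an unadjusted p under 0.05, against 2.43% of all genes lower. None was called by edgeR, with a lowest adjusted p of 0.445, and DESeq2 called 4, namely mt-Atp6, mt-Nd1, mt-Nd4l and mt-Nd6. The edgeR fit without a filter on low reads called these 4 together with mt-Nd2 and mt-Nd4, and DESeq2 with the length offset called mt-Nd4l alone. These RNAs come from the same long precursors and are not independent of each other. With each library left out in turn, all 13 stayed below 0 and their median ran from -0.40 to -0.27. The Pax7KR libraries differed, and replicate 3 had 9 of 13 mRNAs above their own mean over the 6 libraries. Replicates 1 and 2 of Pax7KR had 0 of 13. The mRNAs summed to 50137 CPM in Pax7KR replicate 3, near the 50694 CPM of Pax7WT replicate 1.

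Of the nuclear genes for the respiratory chain, 49 of 80 lay below 0, with a median of -0.03 and a range from -0.44 to 1.26. Without Pax7WT replicate 2, 40 of 80 lay below 0 with a median of -0.0006. Cytoplasmic ribosomal protein genes lay below 0 in 78 of 81, with a median of -0.09, but Pax7WT replicate 2 held the highest value of 76 of 81, and without it 50 of 81 lay below 0 with a median of -0.01. The same library was compared across families. The mean deviation of log2(CPM + 1) from each gene's own mean was 0.06 in Pax7WT replicate 2 for the large subunit, 0.04 for the small subunit and 0.18 for cytoplasmic ribosomal proteins. The difference between these families was not tested.

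**Figure D5:**
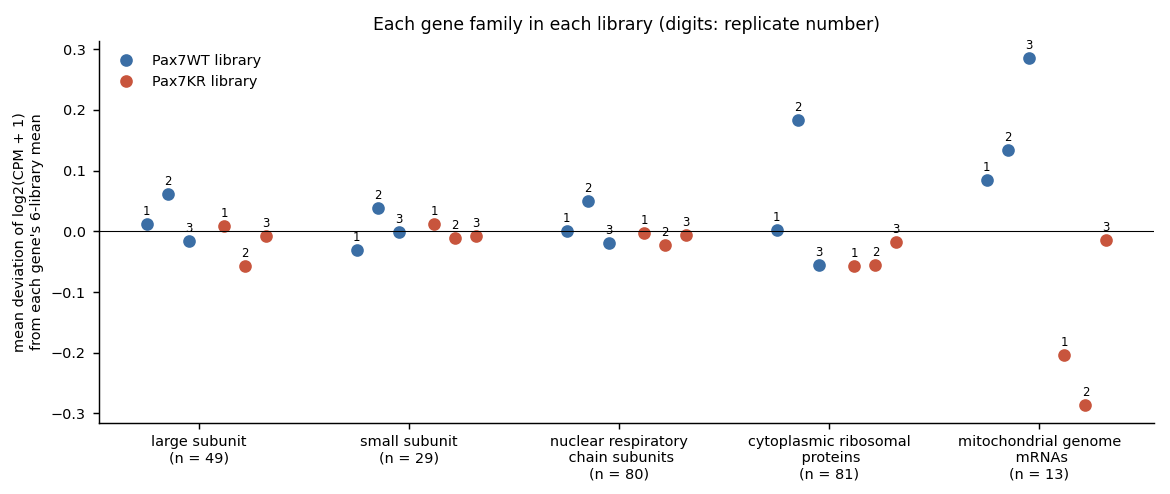
Mean deviation of log2(CPM + 1) from each gene's mean over 6 libraries, for the 2 mitochondrial ribosomal subunits and 3 other families; each point is 1 library, with its replicate number beside it, blue for Pax7WT and red for Pax7KR. The ribosomal subunits stay between -0.06 and 0.06, cytoplasmic ribosomal proteins reach 0.18 in Pax7WT replicate 2, and mitochondrial mRNAs run from -0.29 to 0.29 with the 3 Pax7KR libraries lowest.

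The members also share features of the genome that the rule did not use. They lie on 17 chromosomes, with 11 on chromosome 11 and 8 on chromosome 17. Their median gene length was 7900 bases, against 24569 for tested protein-coding genes, and the most abundant coding transcript had a median of 1208 bases in 5 exons, against 2840 bases in 8 exons. For 33 of 78 members (42.3%) another protein-coding gene started within 1000 bases on the opposite strand, pointing away. That arrangement held for 15.3% of tested protein-coding genes and 18.5% of cytoplasmic ribosomal proteins, and it was found in 24 of 49 large and 9 of 29 small subunit genes.

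In 1 such pair both genes are members: Mrpl46 of the large subunit and Mrps11 of the small subunit start 412 bases apart, with log2 fold changes of -0.14 and -0.03. Mrpl32 starts 75 bases from Psma2, a proteasome subunit, whose log2 fold change was -0.01 beside -0.39 for Mrpl32. RefSeq promoters of 300 bases, 250 before and 50 after the start, were found for 69 of the 78 members, 75 promoters in all. The NRF1 motif given above was in 17.3% of them, against 9.11% of promoters of tested protein-coding genes and 4.60% of all promoters. The ETS core was in 34.7%, against 16.003% and 8.86%, and the YY1 motif, AAGATGGC on either strand, in 12 of 75, against 3.999% of promoters of tested protein-coding genes and 2.75% of all promoters. At least 1 of the 3 was in 57.3% of member promoters, 58.3% in the large and 55.6% in the small subunit, and in 25.9% of those of tested protein-coding genes. Cytoplasmic ribosomal protein promoters held the ETS core in 35.6%, close to the members' share, and the NRF1 motif in 8.22%.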

How the data were processed

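RNA from freshly sorted satellite cells was measured in 3 Pax7WT and 3 Pax7KR libraries, grouped by their labels. The authors prepared stranded libraries, sequenced paired reads of 150 bases, quantified transcripts with salmon (1.3.0) against GENCODE transcripts with genomic decoys (GRCm38), and deposited estimated counts, TPM values and effective lengths per transcript. The authors' deposited table of their own comparison, with fold changes and p-values from DESeq2 (1.28.1), was not used. The strand setting of salmon is not given in the sources used here.

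Estimated counts were summed per gene and rounded. Of 140992 transcripts, 139791 matched an earlier GENCODE release of the same build by identifier, which gave symbols, types and coordinates; the unmatched ones held 0.592% to 0.634% of reads. The test was run on the 17152 genes that had at least 5 reads in at least 2 libraries, in edgeR (4.0.16; TMM, robust quasi-likelihood, genotype only) and Benjamini-Hochberg adjustment over all of them, cut-off 0.1. Standard errors came from the log2 fold change and the F statistic. The fit was tested on simulated data with 200 changed genes. Alternatives used DESeq2 (1.42.0), limma (3.58.1), other scaling, filters, transcript sets, a length offset and left-out libraries. For sequence sharing, all 31-base words of a gene's GENCODE transcripts were looked up in those of every other gene.

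No statement says that samples of a group came from pooled or repeated animals, and the submitters call them biological replicates, so p-values measure the spread between these 3 and 3 samples. Counts of no 2 libraries agreed within sampling noise. Members, lists and tests were chosen with earlier results of these data known. Named members are the 5 highest and 3 lowest of each subunit by TPM, the 10 with the smallest p, those whose genotypes do not overlap in CPM, and 7 with a special role; Mrps6, tied with Mrps22 to 3 digits, was not among the lowest. Named other genes are Pax7, Mrrf, the mitochondrial rRNAs, the 5 ribosome proteins outside the name rule and up to 3 genes per list by smallest p. Mrps12, Mrps14, Mrps16, Mrps26, Mrpl37, Mrpl39, Mrpl43, Mrpl46, Mrps11, Psma2, Gm42688 and Mrpl23-ps1 were named after their values were seen. Intervals rest on 3 samples a group.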

Additional observations from a re-analysis of the deposited data

How the results depend on the processing

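All 12 fits on the 6 libraries and the 6 fits that left out 1 library each called 0 large subunit and 0 small subunit genes, also at an adjusted p under 0.05, by structure and without members that share over 20% of their sequence. The lowest adjusted p of a member was 0.232, in the fit without a filter on low reads. The median log2 fold change of the large subunit ran from -0.06 to 0.0006 over left-out libraries. That of the small subunit ran from -0.025 to 0.019, the upper end without Pax7KR replicate 3, and it was 0.017 on library totals only. Library totals only moved the median of all genes to 0.03 and left 25 large and 13 small subunit genes below 0. The log2 fold change of Mrps23 turned from -0.15 to 0.15 with average transcript length as an offset, in edgeR and in DESeq2. The cause was not tested.

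The number of all genes called was 0 in the reported fit, 30 with DESeq2, 157 without a filter and 45 with DESeq2 and the length offset. Left-out libraries gave 1 to 32, with 32 without Pax7KR replicate 3. Genes called among the lists of other genes were 4 with DESeq2 and 6 without a filter, all of them mitochondrial mRNAs, and 3 with DESeq2 and the length offset, namely mt-Nd4l, Mrrf and Trub2.

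With the replicate number as a block, 13 genes were called in all and 0 members. Whether the numbers pair the samples could not be decided. Same-numbered libraries had correlations of 0.005, 0.027 and -0.044 between their deviations from the group means. Differently numbered libraries ran from -0.066 to 0.059. Deviations within groups of 3 samples can neither show nor exclude a pairing.

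With 3 samples a group, the 95% interval of a member extended 0.14 to 0.52 to each side on the log2 scale, with a median of 0.25.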
